A study of Oryza sativa with 10 samples.

Results

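The 348 genes described here are the nuclear noncoding RNA genes of rice that carry an ENSRNA identifier and were read in root libraries. They were chosen as genes whose identifier starts with ENSRNA, that lie on chromosomes 1 to 12 and that held at least 10 counts over 10 libraries. The files list 38978 genes, of which 949 carry an ENSRNA identifier and 907 of those are nuclear. Of the 907, 388 had 0 counts and 171 had 1 to 9 counts. The rule used total counts and no comparison between groups. At its edge, 9 members held exactly 10 counts and 7 genes left out held 9.

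RNA was sequenced from roots of Oryza sativa plants that were 42 days old. They had grown normally for 30 days, and for 12 more days the salt plants stood in 140 mM NaCl and the control plants in 0 mM NaCl. Line S13, labelled Salt Tolerant, gave 3 salt and 2 control libraries, and line S3, labelled Salt Susceptible, also gave 3 salt and 2 control libraries. Nothing in the labels ties the libraries of a group to different plants, and p-values here therefore measure spread among libraries that may be only technical.

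Genes of this kind encode RNAs that act without being translated. Ribosomal RNAs form the core of the ribosome, transfer RNAs carry amino acids to it, small nuclear RNAs take part in splicing, and small nucleolar RNAs guide chemical modification of other RNAs, often from introns or from clusters of several genes. Plant nuclear genomes also carry pieces of plastid and mitochondrial DNA, and such pieces can include copies of organelle transfer RNA genes.

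The files pair no ENSRNA identifier with a name or an RNA class, and 0 of the 348 members were found in the RefSeq gene table used here, which is built on another assembly. Members are therefore described by length and by position on IRGSP-1.0. No nuclear identifier could be paired with a root marker either, so the tissue was not checked. The libraries held 22938524 to 25703942 counts, so that 3 counts stand for 0.117 to 0.131 CPM, counts relative to the library total, before scaling. Levels below are CPM scaled with TMM factors, which were 0.729 to 0.922 in salt libraries and 1.31 to 1.42 in control libraries. Most members were rare: 188 of the 348 held 10 to 99 counts in all 10 libraries together, the median total was 86.5, and 22 had a mean of at least 10 CPM.

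By length, 146 members were under 100 bp, 171 were 100 to 200 bp and 31 were over 200 bp. The members over 200 bp held 95.6% of all counts on members, and 6 genes of 1811 bp held 91.4%. Members took 0.512% to 1.49% of a library's counts. Members under 100 bp were detected less widely in salt libraries, 104 to 127 of 146, than in control libraries, 128 to 142. The same held at 100 to 200 bp, with 125 to 149 of 171 in salt libraries and 151 to 161 in controls. Over 200 bp the ranges overlapped, at 27 to 31 and 30 to 31. No count over all genes is given here, and the TMM factors were also lower in salt libraries. A filter on low counts left 222 members to be tested, 91, 103 and 28 in order of increasing length. The 126 members not tested held 10 to 71 counts each, and nothing is said of their response.

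In S13, salt changed 78 of the 222 tested members, or 35.1%: 43 rose and 35 fell (edgeR quasi-likelihood test, Benjamini-Hochberg adjusted p under 0.05 over all 28189 genes tested). Over all genes tested, 27.1% were called, 12.8% higher and 14.2% lower. In S3, salt changed 80 of the 222, or 36.0%: 41 rose and 39 fell. All genes tested gave 32.8%, with 14.4% higher and 18.4% lower. Every called member differed by more than 1 on the log2 scale, and in all of them the salt libraries lay wholly above or wholly below the control libraries of that line. Such separation was found in 64.4% of tested members in S13 and 63.1% in S3, against 57.5% and 61.7% of all genes tested.

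**Figure D1:**
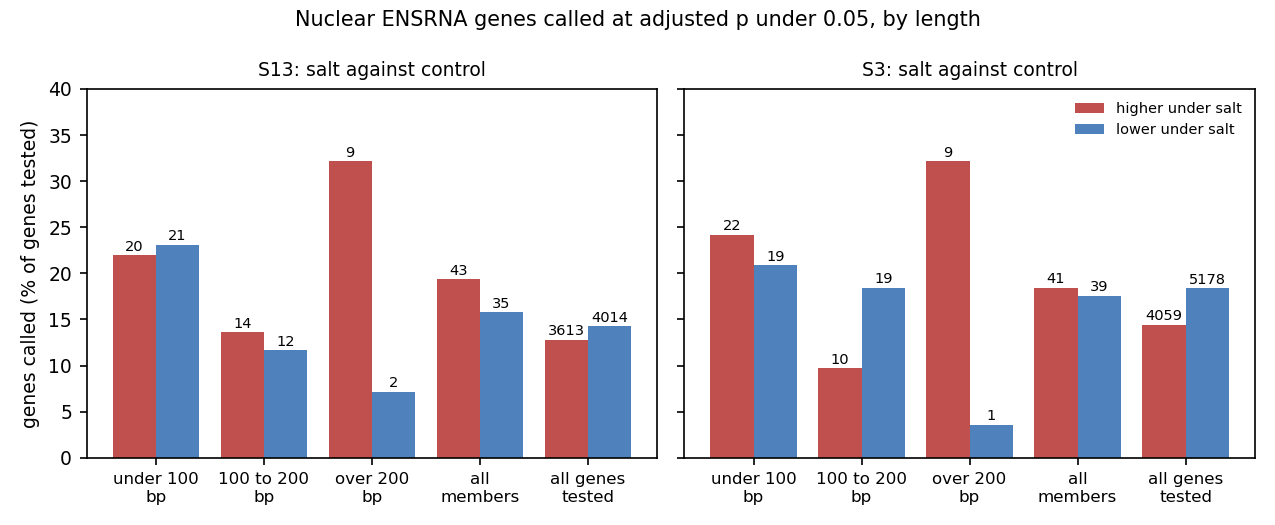
Percent of tested genes called higher (red) or lower (blue) under salt in S13 (left) and S3 (right), for members by length, for all members and for all genes tested. Numbers above the bars are gene counts, and the bars for members over 200 bp show 9 genes higher in each line against 2 lower in S13 and 1 lower in S3.

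These counts lean on the control libraries, of which each line has 2. Without S13 control replicate 1, 14 members were called higher and 5 lower in S13, while the share of all genes called fell to 5.15%. Without S13 control replicate 2, the counts were 13 and 16, at 8.42% of all genes. In S3, 12 were higher and 15 lower without control replicate 1, at 11.1% of all genes, and 13 and 21 without control replicate 2, at 18.1%. Leaving out S3 salt replicate 2 gave 24 lower members in S3, at 21.2% of all genes. Scaling by library totals alone gave 18 higher and 60 lower members in S13 and 24 higher and 65 lower in S3, and it moved the median of all genes to -0.76 and -0.77. Every called member kept its sign under that scaling.

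Calls were counted by class of length, with no test between classes. The share called under 100 bp, at 100 to 200 bp and over 200 bp was 45.1%, 25.2% and 39.3% in S13, against 27.1% of all genes, and 45.1%, 28.2% and 35.7% in S3, against 32.8%. The middle class was near the share of all genes, and slightly below it, in both lines. Among members under 100 bp, 20 rose and 21 fell in S13, with a median log2 fold change (salt over control) of -0.45, and 22 rose and 19 fell in S3, with a median of -0.57. Among members of 100 to 200 bp, 14 rose and 12 fell in S13 (median 0.10), and 10 rose and 19 fell in S3 (median -0.20). Among members over 200 bp, 9 rose and 2 fell in S13 (median 0.76), and 9 rose and 1 fell in S3 (median 0.35). The median over all genes tested was -0.03 in S13 and -0.06 in S3. The 1811 bp genes, none of which was called, are 6 of the 28 tested members over 200 bp, and the median of the other 22 was 0.97 in S13 and 0.84 in S3. With S13 control replicate 1 or 2 left out, the S13 calls were 10 higher and 3 lower or 8 and 10 under 100 bp, 1 and 2 or 2 and 5 at 100 to 200 bp, and 3 and 0 or 3 and 1 over 200 bp. Without S3 control replicate 1 or 2, the S3 calls were 9 and 8 or 8 and 12, 2 and 6 or 2 and 8, and 1 and 1 or 3 and 1 in the same order. Scaling by library totals gave 10 and 31, 3 and 27, and 5 and 2 in S13, and 13 and 32, 7 and 30, and 4 and 3 in S3. Leaving out S13 salt replicate 1 or 3 gave 8 or 9 higher at 100 to 200 bp in S13, and without S13 salt replicate 3 there were 13 higher under 100 bp. Without S3 salt replicate 2 there were 9 lower at 100 to 200 bp in S3, without S3 salt replicate 3 there were 13 higher under 100 bp in S3, and without S13 salt replicate 3 there were 2 lower over 200 bp in S3. Among members on no Os exon, the median in S13 was 0.16 under 100 bp and 0.55 at 100 to 200 bp.

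Calls were compared between the lines. Of the 222, 27 rose in both lines (12.2%, against 8.36% of all genes tested), 27 fell in both (12.2%, against 10.1%), and 0 rose in one and fell in the other (4 of all genes). Calls in S13 alone numbered 16 higher and 8 lower, and calls in S3 alone 14 higher and 12 lower. No share over all genes is given for these single-line counts, so they are not read as a trait of the members. The sign of the log2 fold change was the same in 188 of 222 (84.7%), whether or not a call was made, against 79.9% of all genes tested. A test of the difference between the responses (S13 minus S3) called 0 of the 222 members and 0 of all 28189 genes with edgeR, a background of 0%. In edgeR, 12 members (5.41%) had an unadjusted p under 0.05, against 2435 of all genes tested (8.64%). Limma-voom called 0 members and 0 genes. DESeq2 called 142 genes (0.535%) and 0 members, but gave 61 of the 222 members no adjusted p.

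**Figure D2:**
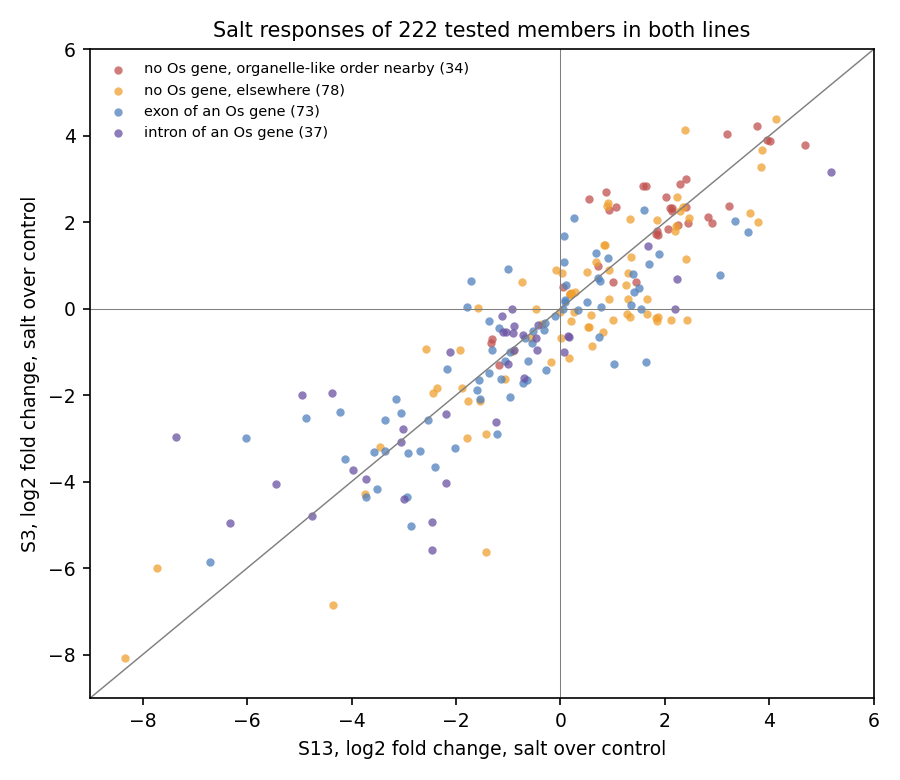
Log2 fold change (salt over control) of the 222 tested members in S13 (horizontal axis) and S3 (vertical axis), coloured by position relative to other genes; the grey diagonal marks equal responses. The 34 members near a stretch with organelle-like gene order lie mostly at the upper right, and most members in exons or introns of Os genes lie at the lower left.

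Calls were also counted by position relative to other genes, with no test between positions. The Os genes are the 37849 nuclear genes with Os identifiers, most of the annotation. Of the 348 members, 111 shared exon bases with an Os gene, 64 lay only within an Os intron, and 173 touched no Os gene. Among the 112 tested members with no Os gene, 34 rose and 8 fell in S13, with a median of 0.93, and 37 rose and 8 fell in S3, with a median of 0.61. These 112 include 34 members near organelle-like gene order, described below, of which 15 rose and 1 fell in S13, and 21 rose and 0 fell in S3. Of the other 78, 19 rose and 7 fell in S13 (median 0.56), and 16 rose and 8 fell in S3 (median -0.05). Among the 73 tested members on Os exons, 7 rose and 15 fell in S13 (median -0.68), and 2 rose and 19 fell in S3 (median -0.80). Among the 37 tested members in Os introns, 2 rose and 12 fell in S13 (median -1.09), and 2 rose and 12 fell in S3 (median -1.01). The share called with no Os gene, on exons and in introns was 37.5%, 30.1% and 37.8% in S13, against 27.1% of all genes, and 40.2%, 28.8% and 37.8% in S3, against 32.8%. Leaving out S13 control replicate 1 or 2 gave S13 calls of 13 higher and 0 lower or 11 and 4 with no Os gene, 1 and 4 or 1 and 6 on exons, and 0 and 1 or 1 and 6 in introns. Without S3 control replicate 1 or 2, the S3 calls were 12 and 2 or 11 and 5, 0 and 9 or 2 and 10, and 0 and 4 or 0 and 6. Under library totals, members with no Os gene split into 15 higher and 15 lower in S13 and 22 and 16 in S3. Members with no Os gene that fell in S13 numbered 5 without S13 salt replicate 3 or without either S3 control, and 5 fell in S3 without S3 salt replicate 2. On exons, 4 rose in S13 without S13 salt replicate 1, and 11 fell in S3 without S3 salt replicate 2.

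Under 100 bp the split ran along the same lines. Over all genes tested, 12.8% were higher and 14.2% lower in S13, and 14.4% and 18.4% in S3. Of 40 tested members with no Os gene, 19 rose and 1 fell in S13, and 22 rose and 0 fell in S3. Among these 40, 21 lay near organelle-like gene order, described below. Those 21 held 12 of the 19 rises and the single fall in S13, and 15 of the 22 rises in S3. Of 21 on Os exons, 1 rose and 8 fell in S13, and 0 rose and 8 fell in S3. Of 30 in Os introns, 0 rose in either line, 12 fell in S13 and 11 fell in S3. These counts follow an annotation that the rule did not use, but members of a cluster or a host gene share their source and are not independent.

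**Figure D3:**
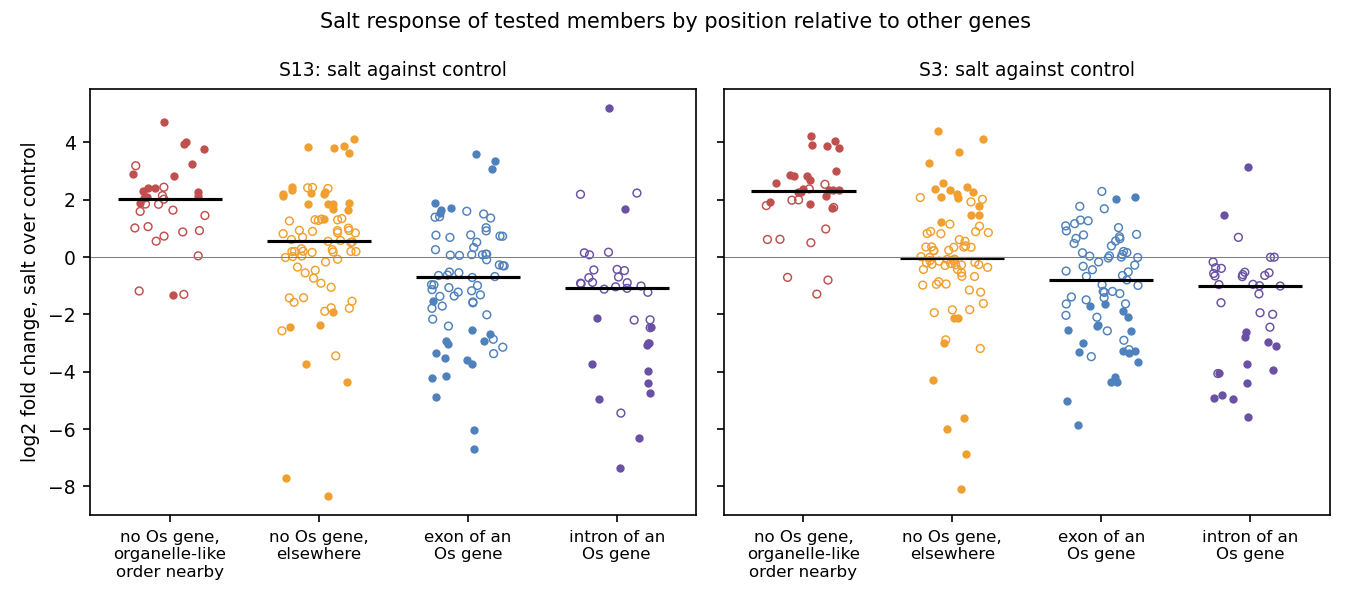
Log2 fold change (salt over control) of each tested member in S13 (left) and S3 (right), grouped by position relative to other genes. Filled points were called at adjusted p under 0.05, open points were not, and black lines mark medians, which run from 2.03 to -1.09 in S13 and from 2.30 to -1.01 in S3.

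One group of members stands in the same arrangement as genes of the organelle genomes. The rule applied was that a pair of nuclear ENSRNA genes repeats the lengths, relative strands and spacing, within 10 bp and over at most 30000 bp, of a pair on the plastid or mitochondrial genome. In all, 29 members met it, 28 for plastid order and 1 for mitochondrial order, on 7 chromosomes, and 0 of them shared exon bases with an Os gene. Including members within 30000 bp of such a gene made 47 members, of which 34 were tested. Of these 34, 15 rose and 1 fell in S13 (median 2.03), and 21 rose and 0 fell in S3 (median 2.30). Of the other 188 tested members, 28 rose and 34 fell in S13 (median -0.30), and 20 rose and 39 fell in S3 (median -0.44). The share called was 47.1% near such a gene and 33.0% elsewhere in S13, against 27.1% of all genes tested. In S3 it was 61.8% and 31.4%, against 32.8%. Of the members near such a gene, 7 and 6 were higher in S13 without S13 control replicate 1 and 2, and without S3 control replicate 1 or 2, 8 and 6 were higher in S3. Under library totals, 6 were higher and 3 lower in S13, and 12 higher and 3 lower in S3. The single fall in S13 was lost without S13 control replicate 1, S13 salt replicate 1 or 3, either S3 control or any S3 salt library. That call was also lost with a replicate block and in a fit of only the groups compared. Without S13 salt replicate 2, 2 fell. Of the other 188, 24 fell in S3 without S3 salt replicate 2, 5 and 15 fell in S13 without S13 control replicate 1 and 2, and 15 and 21 fell in S3 without S3 control replicate 1 and 2. They held 7 higher members in S13 without either S13 control, and 4 and 7 in S3 without S3 control replicate 1 and 2. The arrangement was looked for after the responses of these members were known.

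The plastid genome itself carries 23 ENSRNA genes, of which 14 were tested. In S13, 2 rose and 0 fell, with a median of 2.07, and in S3 6 rose and 0 fell, with a median of 2.25. Over all genes tested, 12.8% were higher in S13 and 14.4% in S3, so the count of 2 of 14 in S13 lies near that share. Reads from near-identical copies may be split between nuclear and organelle genes, and how reads with several positions were counted is not given in the sources used here, so levels of single copies are uncertain. Whether plastid RNA contributes to the counts on nuclear copies was not tested. In bulk tissue, fewer cells of a type and less RNA per cell cannot be told apart either.

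All calls among members of 74 bp were rises. There are 14 of them on 6 chromosomes, 13 were tested, and 0 lie on an Os exon. Their summed level was 34.4, 57.0 and 69.8 CPM in S13 salt libraries, against 7.58 and 3.54 CPM in S13 controls. It was 38.2, 36.1 and 73.0 CPM in S3 salt libraries, against 6.13 and 3.20 CPM in S3 controls. Every salt library lay above every control library in both lines, and the sums did not separate the lines. In S13, 6 of the 13 rose and 0 fell, with log2 fold changes of 1.32 to 4.12. In S3, 9 rose and 0 fell, with log2 fold changes of -0.19 to 4.39. For this and the other lengths, the background is the share over all genes tested. That was 12.8% higher and 14.2% lower in S13, and 14.4% higher and 18.4% lower in S3. Without either S13 control 3 rose in S13, and without S3 control replicate 1 or 2, 4 and 3 rose in S3. Without S13 salt replicate 3, 3 rose in S13, and without S3 salt replicate 3, 4 rose in S3. In the RefSeq table, 136 of 139 genes of this length are transfer RNA genes, which matches the length and not the identifier. So are 183 of 190 genes of 72 bp and 166 of 170 of 73 bp. Of 12 members of 72 bp, 1 was tested and 0 were called. Their mean summed level was 2.36 CPM under salt and 2.46 CPM in controls in S13, and 2.66 and 2.51 CPM in S3. Of the 3 members of 73 bp, 0 were tested. The lengths described next had no such match. Of 10 RefSeq genes of 75 bp, 4 are transfer RNA and 6 small nucleolar RNA genes. The 1 gene of 77 bp is a small nucleolar RNA gene. Of 35 genes of 88 bp, 21 are transfer RNA and 14 small nucleolar RNA genes, and 0 genes have 187 bp. The 3 plastid genes of 74 bp summed to 9.67, 19.7 and 19.9 CPM in S13 salt libraries, against 2.05 and 1.04 CPM in S13 controls. They summed to 11.6, 9.38 and 20.8 CPM in S3 salt libraries, against 1.74 and 0.633 CPM in S3 controls.

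The most abundant member under 100 bp belongs to this family. ENSRNA049445269 covers bases 9279294 to 9279367 of chromosome 8 on the plus strand and touches no Os gene. It had 17.6, 23.9 and 30.7 CPM in S13 salt libraries, against 1.86 and 0.886 CPM in S13 controls. In S3 it had 16.7, 15.4 and 31.9 CPM in salt libraries, against 1.16 and 0.866 CPM in controls. The groups were far apart in both lines, with the lowest salt library several times above the highest control. The log2 fold change was 4.12 ± 0.50 (SE) in S13 (edgeR adjusted p = 0.00118) and 4.39 ± 0.51 in S3 (adjusted p = 0.000774). It was called in both lines under all 22 other settings tried. Some of these only narrow the list of members and reuse the main fit, so the call could not be lost there.

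Members of 75 bp split into a rising and a falling set. The 3 members in the organelle-like stretches, all tested, rose in both lines, with log2 fold changes of 3.77 to 4.69 in S13 and 3.79 to 4.23 in S3. Their summed level was 12.7, 16.9 and 14.3 CPM in S13 salt libraries, against 1.10 and 0.642 CPM in S13 controls. It was 9.57, 11.8 and 20.6 CPM in S3 salt libraries, against 1.19 and 0.566 CPM in S3 controls. All 3 calls were kept in both lines under each setting tried on all members. Over all 8 tested members of this length, 4 rose and 4 fell in each line. One of the rising members, ENSRNA049465662 on the minus strand at bases 10850113 to 10850187 of chromosome 10, had 2.94, 4.22 and 3.89 CPM in S13 salt libraries, against 0.214 and 0.0611 CPM in S13 controls. Its log2 fold change in S13 was 4.69 ± 0.68 (adjusted p = 0.00200). Another, ENSRNA049467856 on the plus strand at bases 20470736 to 20470810 of chromosome 10, had 3.99, 3.61 and 6.91 CPM in S3 salt libraries, against 0.336 and 0.167 CPM in S3 controls. Its log2 fold change in S3 was 4.23 ± 0.56 (adjusted p = 0.00106).

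Most tested members of 77 bp rose. Of 11 members on 5 chromosomes, 9 were tested, and 8 of them rose in S13 and 7 in S3, with 0 lower. Their log2 fold changes lay between 1.85 and 2.82 in S13 and between 1.70 and 2.34 in S3. The summed level was 35.6, 70.9 and 84.9 CPM in S13 salt libraries, against 19.0 and 9.20 CPM in S13 controls. In S3 it was 38.8, 34.3 and 68.3 CPM in salt libraries, against 13.03 and 9.26 CPM in controls. The salt libraries lay above the controls in both lines. In S13, 3 and 1 were called without S13 control replicate 1 and 2, 5 were called there without S13 salt replicate 3, and without either S3 control 1 was called in S3. The 3 plastid genes of 77 bp summed to 3.78, 5.09 and 7.22 CPM in S13 salt libraries, against 3.60 and 2.23 CPM in S13 controls. They summed to 3.61, 2.66 and 6.62 CPM in S3 salt libraries, against 3.54 and 1.67 CPM in S3 controls, where the groups overlapped.

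Members of 187 bp were called in S3 and not in S13. All 5, on 5 chromosomes, rose in S3, with log2 fold changes of 2.28 to 2.70, and 0 of 5 were called in S13, where the values were 0.87 to 1.06. Their summed level was 14.2, 46.7 and 40.8 CPM in S13 salt libraries, against 23.9 and 11.2 CPM in S13 controls. It was 71.1, 38.0 and 73.1 CPM in S3 salt libraries, against 14.7 and 8.53 CPM in S3 controls. Without S3 control replicate 1 or 2, 1 and 0 of the 5 were called in S3, and without S13 salt replicate 1, 1 was called in S13. In S13 the library of salt replicate 1 lay within the control range, so the groups overlapped there, while in S3 they were apart. None of the 5 was called for a difference between the lines' responses, and for the member of this length on chromosome 1 at base 33569114 that difference was -1.53 ± 0.73 (adjusted p = 0.588). The single plastid gene of 187 bp had 2.94, 13.4 and 11.0 CPM in S13 salt libraries, against 6.11 and 3.57 CPM in S13 controls. It had 18.9, 10.4 and 20.7 CPM in S3 salt libraries, against 4.24 and 2.50 CPM in S3 controls.

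**Figure D4:**
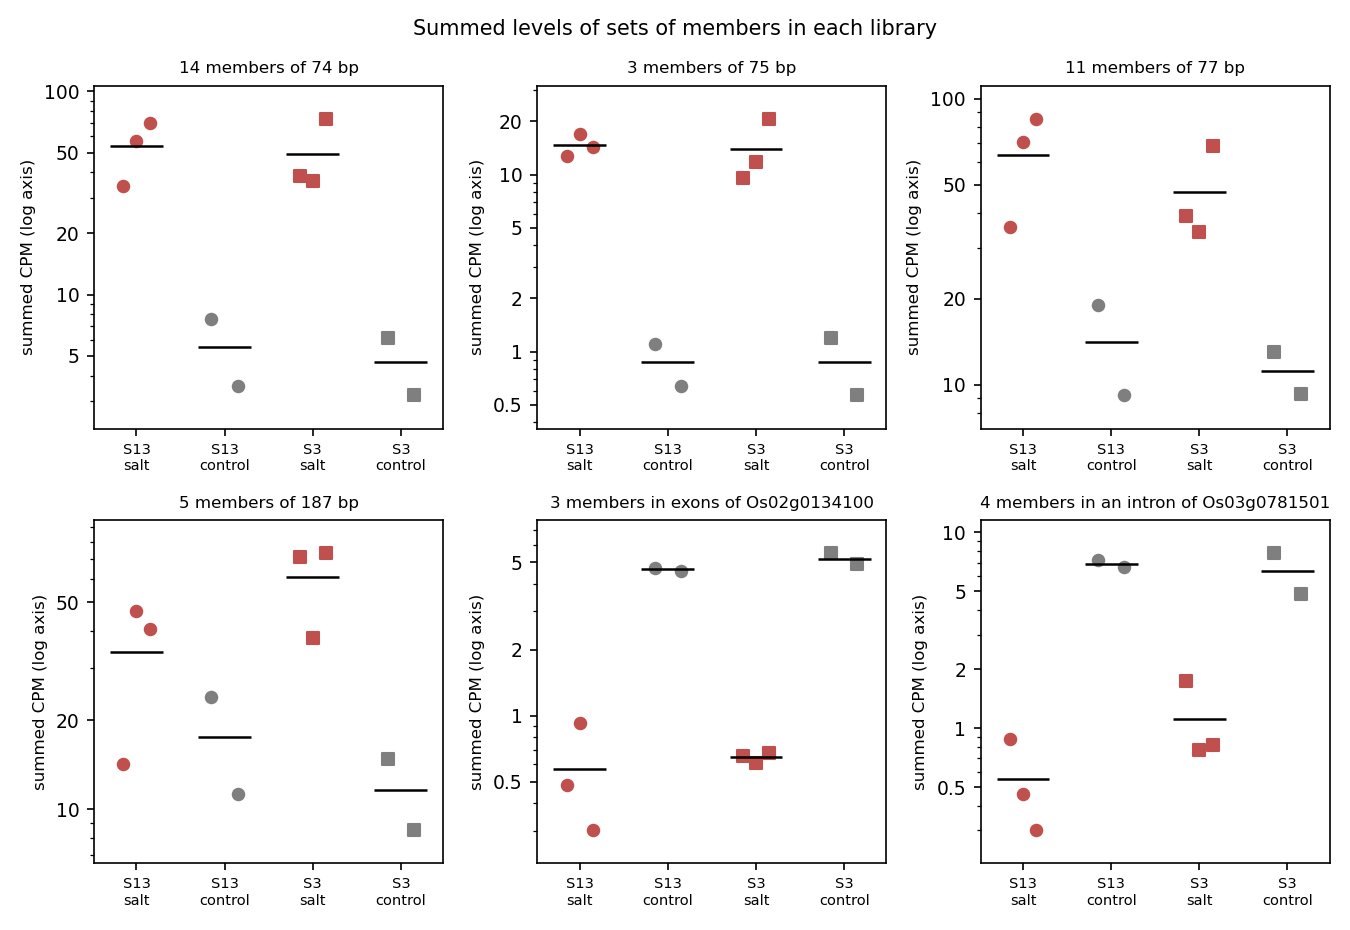
Summed CPM in each library (log axis) of 6 sets of members, with salt libraries in red, control libraries in grey, S13 as circles and S3 as squares; black lines mark group means. The 75 bp set holds only the 3 members of that length in organelle-like stretches. This set and those of 74 and 77 bp lie higher under salt in both lines, the 187 bp set overlaps between groups in S13, and both clusters tied to Os genes lie lower under salt.

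Where members of 88 bp were called, they fell. Of 11 tested, 0 rose and 3 fell in S13, and 0 rose and 1 fell in S3. Over all genes tested, 14.2% were lower in S13 and 18.4% in S3. Summed over 12 members, the level was 11.8, 28.8 and 27.6 CPM in S13 salt libraries, against 72.4 and 34.4 CPM in S13 controls. It was 25.4, 15.3 and 24.6 CPM in S3 salt libraries, against 47.6 and 34.9 CPM in S3 controls. All salt libraries lay below all controls. Without S13 control replicate 1, 0 members of this length fell in S13, without S13 salt replicate 1, 1 fell in S13, and without S3 control replicate 1, 0 fell in S3. The plastid gene of 88 bp had 0.835, 2.14 and 6.92 CPM in S13 salt libraries, against 7.64 and 3.30 CPM in S13 controls. It had 1.08, 1.17 and 0.966 CPM in S3 salt libraries, against 4.21 and 3.16 CPM in S3 controls. It was not called in either line, at -0.73 ± 0.68 in S13 (adjusted p = 0.447) and -1.78 ± 0.71 in S3 (adjusted p = 0.0753), and its groups overlapped in S13 and lay apart in S3. The most abundant nuclear member of this length, on chromosome 10 at base 20480061 in an organelle-like stretch, changed by -1.32 ± 0.43 in S13 (adjusted p = 0.0434), and 10 of 21 other settings lost that call. Settings that only narrow the list of members reuse the main fit and could not lose it.

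Members on Os exons followed the genes they overlap. Of the 111, 94 lay wholly inside Os exons, 100 were on the strand of the Os gene and 11 on the opposite strand, and the smallest shared part was 53.4% of a member's bases. A member's total was a median of 30.3% of its partner's total, over 90 partners. Of the 73 tested pairs, member and partner had the same sign of change in 67 in S13 and 68 in S3, with a median absolute gap of 0.29 and 0.27 on the log2 scale. Of the 15 members that fell in S13, 14 had a partner that fell, as did 17 of the 19 that fell in S3. Of the 7 that rose in S13, 5 had a partner that rose. Reads on shared bases cannot be assigned to one of the genes, so these values are not independent of the partner's.

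A cluster of 3 members in the exons of Os02g0134100 showed the falling pattern. The members, of 99, 87 and 95 bp, lie between bases 1797455 and 1798097 of chromosome 2, and all 3 fell in both lines. Their summed level was 0.483, 0.925 and 0.303 CPM in S13 salt libraries, against 4.73 and 4.58 CPM in S13 controls. It was 0.657, 0.611 and 0.676 CPM in S3 salt libraries, against 5.49 and 4.90 CPM in S3 controls. The groups were well apart in both lines. Os02g0134100 itself changed by -2.90 ± 0.39 in S13 (adjusted p = 0.00157) and -2.36 ± 0.38 in S3 (adjusted p = 0.00214).

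Members on an exon could also rise with their partner. The 161 bp member at base 1892320 of chromosome 3 lies wholly inside an exon of Os03g0133875 and holds 98.5% of that gene's total. It had 5.32, 4.85 and 8.69 CPM in S13 salt libraries, against 0.886 and 0.336 CPM in S13 controls, and 3.52, 3.78 and 4.20 CPM in S3 salt libraries, against 0.610 and 1.27 CPM in S3 controls. The salt libraries lay above the controls in both lines. The log2 fold change was 3.35 ± 0.55 in S13 (adjusted p = 0.00292) and 2.03 ± 0.51 in S3 (adjusted p = 0.0138), beside 3.31 ± 0.54 and 1.99 ± 0.50 for Os03g0133875. Nearly the same counts enter the values of member and partner, so their likeness is not separate evidence. Without S3 control replicate 1, or scaled by library totals, the call in S3 was lost. The 161 bp members, 7 in all and each on an Os exon, had 5 tested, of which 2 rose in S13 and 1 in S3.

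Members in introns were set beside the genes that host them. For 35 pairs of a member and a tested host, over 18 hosts, 11 members fell in S13, and the host fell for 5 of them and was not called for 6. In S3, 12 members fell, and the host fell for 9 and was not called for 3. A cluster of 4 members of 82, 68, 86 and 87 bp lies between bases 32398830 and 32399498 of chromosome 3, in an intron of Os03g0781501. Its summed level was 0.879, 0.462 and 0.303 CPM in S13 salt libraries, against 7.21 and 6.66 CPM in S13 controls, and 1.74, 0.777 and 0.821 CPM in S3 salt libraries, against 7.81 and 4.86 CPM in S3 controls. The salt libraries lay far below the controls in both lines. All 4 members fell in S13, with log2 fold changes of -4.96 to -3.01, and 2 of the 4 fell in S3, where the values were -3.09 to -1.94. The host changed by -1.05 ± 0.34 in S13 (adjusted p = 0.0445) and -1.43 ± 0.35 in S3 (adjusted p = 0.0113).

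A 134 bp member on chromosome 6, at base 18950351 in an intron of Os06g0517500, moved against its host. It is described because of its values, which were seen first. In S13 it had 44 counts over 3 salt libraries against 1 count over 2 control libraries, a scaled ratio of 48.1 with a 95% interval of 8.20 to 1943 that covers counting error only. It was called higher in S13 (adjusted p = 0.00415) and in S3 (adjusted p = 0.0124), where the log2 fold change was 3.16. The call in S13 was lost without S13 control replicate 1 and that in S3 without either S3 control. Os06g0517500 changed by -2.21 ± 0.64 in S13 (adjusted p = 0.0285) and by -2.53 ± 0.63 in S3 (adjusted p = 0.0125).

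Members were also grouped by their neighbours. Joining members at most 1000 bp apart gave 62 clusters with 177 members, and 23 clusters held at least 3. Of the 18 of those with at least 2 tested members, all tested members had log2 fold changes below 0 in 11 clusters in S13 and 13 in S3, and all lay above 0 in 2 clusters in S13 and 0 in S3. Of the 63 tested members in clusters of at least 3, 2 rose and 12 fell in S13 (median -0.96), and 1 rose and 16 fell in S3 (median -0.96). Clusters of 2 had the opposite balance. Of their 53 tested members, 21 rose and 9 fell in S13 (median 1.63), and 19 rose and 10 fell in S3 (median 0.50). Most of these rises belong to length families or repeated units that are described separately. The balance therefore largely counts those members again, and whether it depends on cluster size was not tested. The share called in clusters of 2 was 56.6% in S13 and 54.7% in S3. In clusters of at least 3 it was 22.2% and 27.0%, below the 27.1% and 32.8% of all genes tested. Over all clusters, 23 of 116 tested members rose and 21 fell in S13, and 20 rose and 26 fell in S3. Of the 106 tested members that stood alone, 20 rose and 14 fell in S13 (median 0.52), and 21 rose and 13 fell in S3 (median 0.15). Larger clusters did not all fall: of 7 tested members among 17 between bases 31179538 and 31186720 of chromosome 3, 0 were called in either line, with log2 fold changes of -0.35 to 0.81 in S13 and -0.86 to 0.39 in S3.

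Some falls ended at 0 counts. ENSRNA049467907, 137 bp on the plus strand at bases 21237313 to 21237449 of chromosome 10, touches no Os gene. It had 0 counts in all 3 salt libraries of S13, against 57 and 49 in S13 controls, and 0 in all 3 salt libraries of S3, against 83 and 5 in S3 controls. Set against a floor of 3 counts over the salt group, it was at least 32.3-fold lower under salt in S13 (adjusted p = 0.0186) and at least 28.0-fold lower in S3 (adjusted p = 0.0175). The S3 controls differ widely from each other, and without control replicate 1 the call in S3 was lost. In S13 it was lost without either control.

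ENSRNA049475950, 148 bp at base 16943642 of chromosome 3, had 0 counts in every salt library of both lines. Its counts were 47 and 22 in S13 controls and 11 and 9 in S3 controls. It was at least 21.0-fold lower under salt in S13 (adjusted p = 0.00778) and at least 6.37-fold lower in S3 (adjusted p = 0.0187). Without S13 control replicate 1 the call in S13 was lost, and without either S3 control the call in S3 was lost. ENSRNA049470243, 88 bp in an exon of Os06g0676300, had 0 counts in S13 salt libraries, against 18 and 16 in S13 controls, and 1, 0 and 0 in S3 salt libraries, against 72 and 9 in S3 controls. It was at least 10.4-fold lower under salt in S13 (adjusted p = 0.0196). In S3 the ratio of scaled counts, salt over control, was 0.0129, with a 95% interval of 0.000323 to 0.0740 for counting error only (adjusted p = 0.00964). Its calls were lost without either S13 control and without S3 control replicate 1.

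Of the 28 tested members over 200 bp, 2 shared exon bases with an Os gene, and neither rose. On chromosome 4, members of 496 and 578 bp lie end to end from base 23643596 on the minus strand and rose in both lines. The 578 bp member had 2.50, 3.58 and 3.13 CPM in S13 salt libraries, against 0.519 and 0.733 CPM in S13 controls, and 2.35, 2.22 and 3.91 CPM in S3 salt libraries, against 0.610 and 0.566 CPM in S3 controls. Its log2 fold change was 2.28 ± 0.46 in S13 (adjusted p = 0.00654) and 2.25 ± 0.46 in S3 (adjusted p = 0.00533). The groups were apart in both lines, and the 2 responses were almost equal. The 496 bp member changed by 3.63 ± 0.65 in S13 and 2.21 ± 0.61 in S3. Without S13 control replicate 1 the call of the 578 bp member in S13 was lost, without S13 control replicate 2 that of the 496 bp member in S13, and without either S3 control that of the 496 bp member in S3.

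Of the members over 200 bp that rose, the most abundant was a 372 bp gene on the minus strand at bases 10790457 to 10790828 of chromosome 10, in an organelle-like stretch, named after its values were seen. It had 82.2, 178.5 and 114.9 CPM in S13 salt libraries, against 26.0 and 26.4 CPM in S13 controls. In S3 it had 104.0, 108.8 and 156.5 CPM in salt libraries, against 26.1 and 38.4 CPM in controls. Its salt libraries lay well above its controls in both lines. The log2 fold change was 2.25 ± 0.37 in S13 (adjusted p = 0.00305) and 1.93 ± 0.37 in S3 (adjusted p = 0.00409). The longest member, 2625 bp at base 5633756 of chromosome 12, also named after its values were seen, changed by 2.20 ± 0.38 in S13 (adjusted p = 0.00351) and 1.79 ± 0.37 in S3 (adjusted p = 0.00580). Both members lost the call in S3 without S3 control replicate 1. A 274 bp member inside an exon of Os01g0507000 fell in both lines, by 1.54 ± 0.44 on the log2 scale in S13 (adjusted p = 0.0275) and by 2.08 ± 0.45 in S3 (adjusted p = 0.00683). The S13 call of that member was lost without either S13 control and without S13 salt replicate 1.

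Members of 1811 and 156 bp lie in a repeated unit. Members of 1811 bp stand at 5 places between bases 3626 and 37148 of chromosome 9, 7928 bp apart, and at bases 28719357 to 28721167 of chromosome 2. Members of 156 bp follow at the same spacing, 5 between bases 5637 and 37504 of chromosome 9 and 1 at bases 28721366 to 28721521 of chromosome 2. In the RefSeq table, 512 of 525 genes of 1811 bp and all 512 of 156 bp are ribosomal RNA genes, again a match of length alone. Within a library the highest copy of 1811 bp had 1.29 to 1.80 times the counts of the lowest. For 156 bp that ratio was 2.31 to 3.44 in 9 libraries and 8.21 in S13 control replicate 2. Reads from near-identical copies may have been split among them, so calls of single copies are uncertain and levels are given as sums.

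The 6 genes of 1811 bp summed to 6189, 5999 and 9950 CPM in S13 salt libraries, against 3586 and 9596 CPM in S13 controls. They summed to 5144, 11479 and 11366 CPM in S3 salt libraries, against 4446 and 10798 CPM in S3 controls. The spread within each group was as wide as the range across groups, and 0 of 6 were called in either line. The 156 bp genes summed to 161.9, 105.0 and 143.9 CPM in S13 salt libraries, against 46.3 and 22.1 CPM in S13 controls. They summed to 34.0, 195.3 and 99.0 CPM in S3 salt libraries, against 121.9 and 136.1 CPM in S3 controls. In S13 the groups did not overlap and 5 of the 6 rose, 0 without either S13 control, without salt replicate 1 or under library totals, and 2 without salt replicate 3, while in S3 they overlapped and 0 of 6 were called. None of the 6 was called for a difference between the lines' responses. Counts on 1811 bp genes were 36.5 to 434 times those on 156 bp genes, and the highest ratio, 434, was that of S13 control replicate 2.

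**Figure D5:**
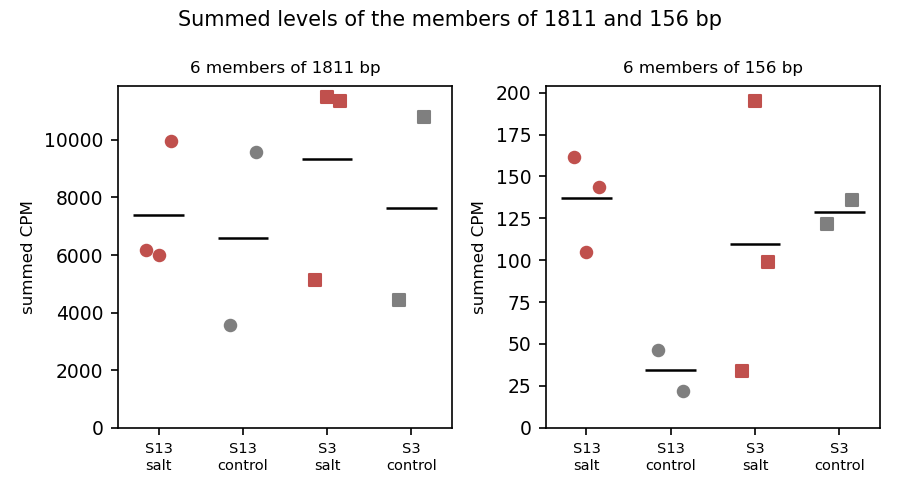
Summed CPM of the 6 members of 1811 bp (left) and of the 6 members of 156 bp (right) in each library, with salt libraries in red, control libraries in grey, S13 as circles and S3 as squares; black lines mark group means. The 1811 bp sums overlap between salt and control in both lines, and the 156 bp sums are apart in S13 and overlap in S3.

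Between the lines few members differed. Without salt, 1 of 222 members was lower in S13 than in S3 and 0 were higher, against 1.42% of all genes called, 0.756% higher and 0.667% lower. Under salt, 1 was higher and 1 lower in S13, against 3.57% of all genes, 1.8% higher and 1.77% lower. The libraries of the lines did not overlap for 32.9% of tested members without salt and 6.31% under salt, against 47% and 17.5% of all genes tested. The member lower in S13 was the same under both conditions, a 318 bp gene at bases 23323571 to 23323888 of chromosome 1. It had 0.571, 0.520 and 0.202 CPM in S13 salt libraries, against 5.54, 4.89 and 5.89 CPM in S3 salt libraries. It had 2.05 and 1.25 CPM in S13 controls, against 11.6 and 9.46 CPM in S3 controls. The lines were clearly apart in each condition. The log2 fold change of S13 over S3 was -3.64 ± 0.42 under salt (adjusted p = 0.000716) and -2.67 ± 0.45 without salt (adjusted p = 0.0125). Its call under salt was kept in every setting run on all members. Without S13 salt replicate 2, 3 members were called under salt. The call without salt was lost when any 1 of the 4 control libraries was left out.

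The member higher in S13 under salt, 162 bp at base 31813012 of chromosome 2, shares 98.8% of its bases with an exon of Os02g0756032. It had 1.27, 1.56 and 1.21 CPM in S13 salt libraries, against 0.329, 0.278 and 0.338 CPM in S3 salt libraries. It had 0.428 CPM in each S13 control, against 0.763 and 0.733 CPM in S3 controls. S13 was thus above S3 under salt and below it without salt. S13 over S3 under salt was 2.08 ± 0.45 on the log2 scale (adjusted p = 0.0310). That call was lost without any 1 library other than S13 salt replicate 2, at adjusted p = 0.0528 to 0.122, and also under library totals (0.0522), with the replicate block (0.0800) and in a fit of only the groups compared (0.0568). Its response to salt was 1.64 ± 0.49 in S13 (adjusted p = 0.0325) and -1.23 ± 0.49 in S3 (adjusted p = 0.0749), and the difference of 2.88 ± 0.69 did not pass the test (adjusted p = 0.473). In S13 the response lost its call without either control and without salt replicate 1 or 2.

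Other length families gave small counts. Of 14 members of 121 bp, 10 were tested, and 0 rose in either line while 2 fell in S13 and 4 in S3. Their summed level was 17.1, 3.29 and 14.9 CPM in S13 salt libraries, against 25.9 and 24.7 CPM in S13 controls, and 10.2, 5.27 and 14.2 CPM in S3 salt libraries, against 33.7 and 35.3 CPM in S3 controls. The salt libraries lay below the controls in both lines. The calls in S13 were lost without either S13 control, either S3 control, S13 salt replicate 3 or S3 salt replicate 2, and 1 stood without S13 salt replicate 2 or S3 salt replicate 1. In S3, 1 call stood without S3 control replicate 1 or S3 salt replicate 2, 2 without S3 salt replicate 1 and 0 without S3 control replicate 2. In the RefSeq table, 14 of 17 genes of this length are small nucleolar RNA genes. Of 15 members of 119 bp, 7 were tested, of which 2 rose and 0 fell in each line, and 206 of 223 RefSeq genes of that length are ribosomal RNA genes. In each line the 2 that rose were among the 4 tested members of this length near organelle-like order. The plastid gene of 119 bp changed by 2.34 ± 0.81 in S13 (adjusted p = 0.0543) and 2.14 ± 0.86 in S3 (adjusted p = 0.0776), and was not called. Of 11 members of 197 bp, 10 on Os exons, 10 were tested and 0 were called in either line, with log2 fold changes of -0.68 to 1.39 in S13 and -0.68 to 1.16 in S3. Of the RefSeq genes of that length, 12 of 14 are small nuclear RNA genes.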

How the data were processed

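Root RNA, extracted as total RNA by a phenol and chloroform method, was made into cDNA libraries, per the labels. The sources used here do not state whether ribosomal RNA was depleted or poly(A) RNA selected. The authors deposited raw counts of reads per gene with gene coordinates, strand and exon length, per the file headers. The tools were FastQC, Trimmomatic, HISAT2, featureCounts and DESeq2, on IRGSP-1.0, per the submitters' processing notes. How strand, overlapping genes and reads with several positions were treated is not given in the sources used here.

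All 10 libraries entered 1 quasi-likelihood fit in edgeR 4.0.16 (R 4.3.3) with a mean for each of 4 groups, taken from the titles. The filterByExpr step kept 28189 genes and dropped 10789. Normalisation was by TMM, and the common biological coefficient of variation was 37.3%. A call is an adjusted p under 0.05 (Benjamini-Hochberg, all genes kept). Fold changes are salt over control, or S13 over S3. Sets of members are described by counts and medians without a test. Overlaps come from exon coordinates. Intervals and the floor of 3 counts cover counting error only. On counts simulated for S13 salt against control over 28189 genes, of which 200 were changed, the fit called 30% of 4-fold changes with 1 false call and 76% of 8-fold changes with 9. Far fewer genes were changed there than the 27.1% called in S13. The simulated percentages therefore do not give the sensitivity of the calls reported here. Alternatives were DESeq2 1.42.0, limma 3.58.1 with voom, other scalings and filters, a replicate block and the removal of single libraries.

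The members and lists were chosen with earlier results of these data known, and the lengths described were picked among those shared by several members after values were seen. For each line and length class, the rule named the 2 largest rises and 2 largest falls among called members whose libraries do not overlap and whose higher mean reaches 1 CPM. It added the 2 most abundant per class, the 2 with the smallest p for a difference of responses, the 2 largest called differences between lines, and Os partners. Not every member it named is printed. RefSeq lengths come from assembly ASM3414082v1. No sequence is printed.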

Additional observations from a re-analysis of the deposited data

How the results depend on the processing

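Counts of calls lean on the 2 control libraries of each line, and depth limits the 188 members with 10 to 99 counts. Scaling by library totals gave 18 higher and 60 lower members in S13, 24 and 65 in S3, and 1 that differed between lines under salt. Medians under 100 bp, at 100 to 200 bp and over 200 bp were then -1.20, -0.57 and 0.0080 in S13 and -1.28, -0.96 and -0.36 in S3; the factors of TMM, lower in salt than in control libraries, set this gap. With 1 gene per set of overlapping genes, or without members on Os exons, 20 were lower in each line, 1 differed under salt, and S13 medians were 0.16 under 100 bp and 0.55 at 100 to 200 bp; these settings hold fewer members. Members over 30000 bp from organelle-like order, a setting chosen after seeing the data, gave 28 higher in S13, 20 higher in S3, an S13 median of -0.92 under 100 bp and an S3 median of -0.28 at 100 to 200 bp. That S3 median was -0.16 with DESeq2 size factors, -0.12 with no filter and -0.27 at 1 CPM in 2 libraries, which also gave -0.21 at 100 to 200 bp in S13 and 0.85 over 200 bp in S3. At 100 counts in total, medians were 0.046 under 100 bp in S13 and 1.08 over 200 bp in S3. Between lines, DESeq2 called 2 members without salt and 4 under salt, limma-voom 2 without salt, and a fit of only the groups compared 6 and 1. A fit with replicate number as a block gave 28 higher in S13 and 1 that differed under salt. The labels do not say that numbers mark pairs: deviations of same-numbered libraries correlated at -0.065 and -0.12 for replicate 1 and at -0.065 and -0.031 for replicate 2 in S13 and S3, and between lines at -0.040, 0.20 and -0.010 for salt replicates 1, 2 and 3 and at 0.051 for controls. Leaving out 1 library gave 13 to 43 higher and 5 to 36 lower in S13, 12 to 43 higher and 15 to 44 lower in S3, 0 to 1 that differed without salt and 1 to 3 under salt. Medians then ran from -0.63 to -0.25, 0.02 to 0.34 and 0.58 to 1.02 in S13, by increasing length, and from -0.80 to -0.27, -0.28 to -0.051 and 0.15 to 1.10 in S3. The difference of responses called 0 members in every setting run. The cause of other shifts was not tested. No named member that was called changed sign in any setting; uncalled ones did, among them the 1811 bp genes under library totals. Medians were not computed for DESeq2, limma-voom, block and group-only fits.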
